A study of Homo sapiens with 19 samples.

Results

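The proteasome subunit genes were taken as the genes whose whole symbol is PSM, a letter from A to G and a number. The rule found 48 genes among the 34825 genes of each of 2 expression tables from HepG2, a human liver cancer cell line that keeps many hepatocyte features. Of these, 46 had a mean of at least 10 normalized counts in both tables and were tested. PSMA8, the alpha subunit of testis, and PSMB11, the catalytic subunit of thymus cortex, had at most 2 and 4 reads in any library and were not tested.

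The proteasome degrades proteins that carry a ubiquitin chain. Its 20S core is a barrel of alpha rings, encoded by PSMA genes, around beta rings, encoded by PSMB genes, of which PSMB5, PSMB6 and PSMB7 cut the substrate. PSMB8, PSMB9 and PSMB10 are inducible replacements for these catalytic subunits and form the immunoproteasome, which is best known for making peptides for MHC class I. The 19S cap recognises, unfolds and feeds the substrate, with ATPases encoded by PSMC genes and non-ATPase subunits by PSMD genes. PSMD5, PSMD9 and PSMD10 are chaperones that assist assembly of the 19S base, and PSMG1 to PSMG4 assist assembly of the core. PSME genes encode activators that open the core without ubiquitin, and PSMF1 encodes the inhibitor PI31.

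In the first experiment, HepG2 cells were transfected with a non-targeting siRNA (NTG) or with 1 of 2 siRNAs, siINO80#1 and siINO80#2, against INO80, the ATPase of a chromatin remodeling complex, with 3 libraries per group. In the second, cells received DMSO or 1 uM EPZ-6438, an inhibitor of the histone methyltransferase EZH2, and 3 days later NTG or an siRNA against MCRS1 (siMCRS1), another subunit of the INO80 complex. That gave DMSO NTG (2 libraries), DMSO siMCRS1 (3), EPZ-6438 NTG (3) and EPZ-6438 siMCRS1 (2). All siRNAs were used at 50 nM and cells were collected at 72 h. Both experiments used transient knockdown in a single line, MCRS1 was targeted under 1 siRNA name, and the labels do not say whether libraries came from separate cultures, so p-values measure only the spread between these libraries. The 2 experiments were normalized separately, and groups were compared only within each.

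Library sizes ranged from 17093574 to 25369547 reads for the INO80 siRNAs and from 26038505 to 47397233 for MCRS1 and EPZ-6438. INO80 was at 1278, 1338 and 1175 normalized counts in NTG, 576, 639 and 609 with siINO80#1 and 439.8, 456 and 483 with siINO80#2. MCRS1 was at 1577 and 1283 in DMSO NTG, 140.2, 83.7 and 119 in DMSO siMCRS1, 1533, 1355 and 1201 in EPZ-6438 NTG and 126 and 90.5 in EPZ-6438 siMCRS1. Each target was thus lower in every knockdown library than in every control library of its experiment. INO80 mRNA was also lower with siMCRS1, with log2 fold changes of -0.27 in DMSO and -0.35 in EPZ-6438. The 10 hepatocyte or HepG2 markers were abundant, from a mean of 1578 normalized counts for FOXA1 in NTG upwards. The T cell marker CD3E was at 0 in every library of the INO80 experiment and the erythroid marker HBB at 0 in every library of the other. Other markers of blood, fibroblasts and endothelium were detected. Per library, the sums of these 3 lists were 1064 to 1253, 113 to 156 and 207 to 244 in NTG. In DMSO NTG they were 982 to 1054, 242 to 293 and 194 to 219.

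Together the 48 genes took 0.667% ± 0.0219 (SD, n = 3) of all reads in NTG, 0.564% ± 0.0251 with siINO80#1 and 0.551% ± 0.0901 with siINO80#2. In the second experiment the share was 0.764% ± 0.019 (n = 2) in DMSO NTG, 0.713% ± 0.0223 in DMSO siMCRS1, 0.724% ± 0.0708 in EPZ-6438 NTG and 0.704% ± 0.0102 (n = 2) in EPZ-6438 siMCRS1. In these bulk libraries, less RNA per cell cannot be told apart from fewer cells that express a gene.

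Replicates differed in these genes as a group. In siINO80#2 replicate C, 36 of the 46 tested genes (78.3%) were at their lowest of the 3 siINO80#2 libraries, as were 43.3% of all genes tested, and the median of the 46 was 0.32 log2 units below the mean of the other 2 libraries, against 0.03 over all genes. The same letter was low in the other groups, with 33 of the 46 genes lowest in siINO80#1 replicate C (31.02% of all genes) and 30 in NTG replicate C (35.2%), though the medians of the 46 there were -0.09 and -0.08. Against the mean of replicates A and B, siINO80#2 replicate C had medians of -0.68 for the immunoproteasome subunits, -0.59 for the alpha ring and -0.49 for the beta ring. The medians were -0.27 for the 19S ATPases and -0.14 for the 19S non-ATPases, while PSMF1 was at 0.34. Of the immunoproteasome subunits, PSMB8 was at -0.68 and PSMB10 at -0.73, but PSMB9 was at 0.05. EPZ-6438 NTG replicate 1 was the highest of its group for 37 of the 46 genes (35.02% of all genes). DMSO siMCRS1 replicate 3 was the lowest of its group for 36 (40.1%), and EPZ-6438 NTG replicate 3 for 33 (37.7%). DMSO NTG replicate 1 was the higher of its 2 libraries for 38 (55.7%). Libraries of the second experiment are called by the numbers or letters of the table columns, most of which the labels do not carry. The heat map of all 46 genes shows each library beside its control group.

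**Figure D1:**
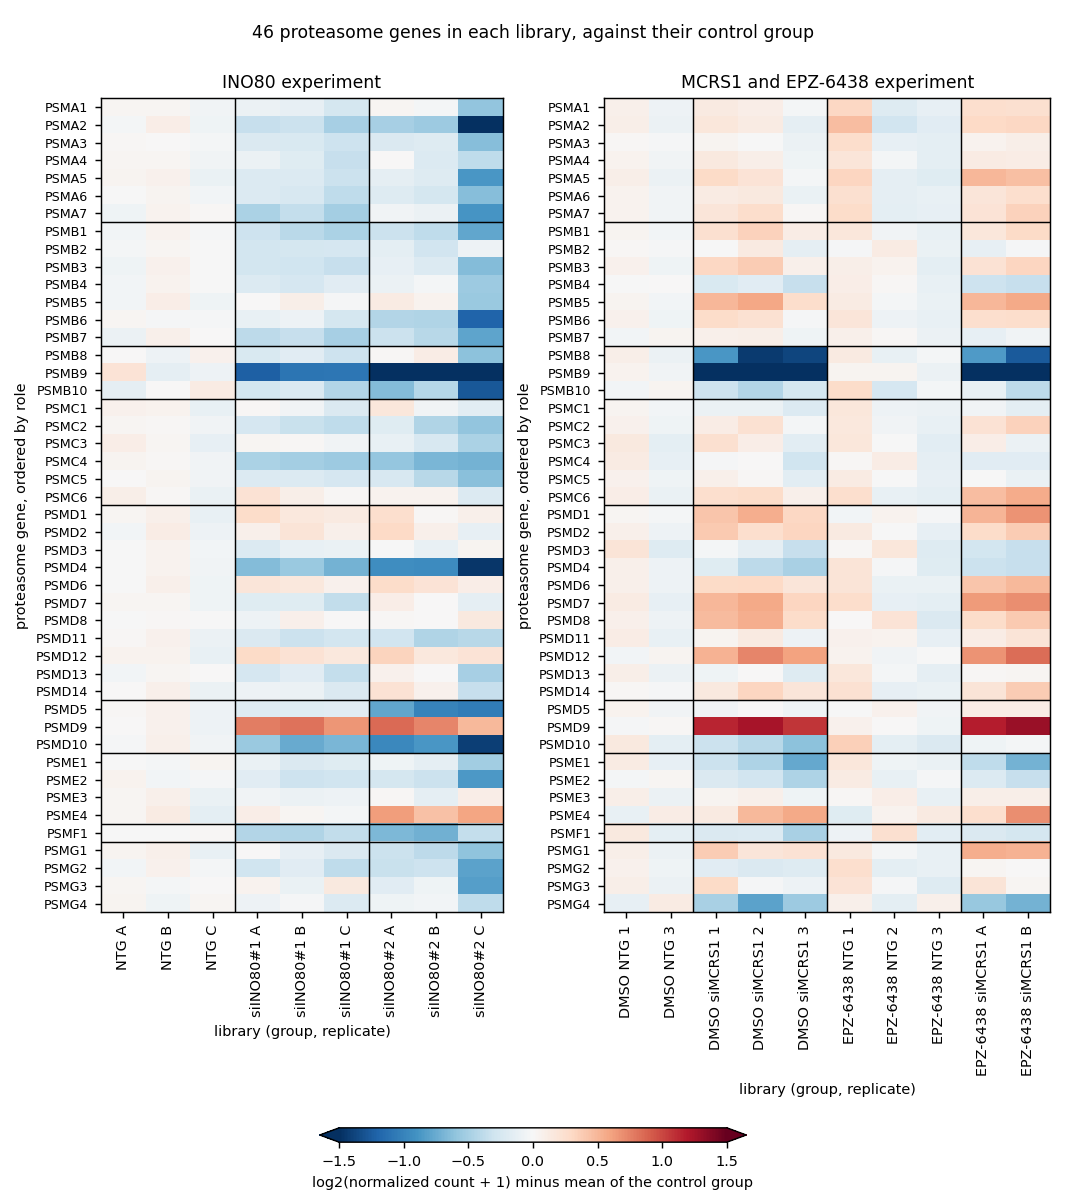
Each cell gives log2(normalized count + 1) of 1 proteasome gene in 1 library minus the mean of its control group (NTG for both INO80 siRNAs, DMSO NTG for DMSO siMCRS1, EPZ-6438 NTG for EPZ-6438 siMCRS1), with lines between roles and groups; colors saturate at 1.5 in either direction. PSMB9 is lower and PSMD9 higher in all knockdown libraries of both experiments, and siINO80#2 replicate C shows the lowest values of its group for 36 of the 46 genes.

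Levels between genes were compared per kilobase of transcript, as normalized counts in the control libraries divided by the length of the canonical transcript. In NTG the constitutive beta ring had a median of 3014 (range 806 to 6162) and the alpha ring 2262 (562 to 7181). The 19S non-ATPases had a median of 1486 and the ATPases 1086. Assembly factors were rarer, with ranges of 153 to 546 for the 19S chaperones and 216 to 681 for the core chaperones. The immunoproteasome subunits had the lowest median of the tested roles, at 122 for PSMB9, 181 for PSMB10 and 233 for PSMB8, compared with 2006 for PSMB6, 3055 for PSMB7 and 6162 for PSMB5, which PSMB9, PSMB10 and PSMB8 replace in that order. In DMSO NTG the medians were 4775 for the beta ring, 5639 for the alpha ring and 273 for the immunoproteasome subunits.

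Upstream sequence is shown for members that the comparisons below turn on, in order to set their letters side by side. PSMB9, PSMD9 and PSMD12 were called in the same direction in all 4 comparisons of an siRNA with NTG, as was PSMD4, and PSMD10 was among the largest falls with both INO80 siRNAs. The sequences are the 250 bases before the transcription start in RefSeq on GRCh38.p14, read 5′ to 3′ on the strand of the gene. Capitals mark matches, on either strand, to 6 searched motifs: TGACNNNGC, the antioxidant response element core bound by NFE2L1 and NFE2L2; AANATGGC (YY1); CCAAT (NF-Y); CCGGAAG (ETS factors); the nuclear respiratory factor 1 motif, GCGCA, any base, then GCGC; and the core of the interferon-stimulated response element, GAAA, any 2 bases, then GAAA.

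PSMB9 (chr6:32853942-32854191, plus strand): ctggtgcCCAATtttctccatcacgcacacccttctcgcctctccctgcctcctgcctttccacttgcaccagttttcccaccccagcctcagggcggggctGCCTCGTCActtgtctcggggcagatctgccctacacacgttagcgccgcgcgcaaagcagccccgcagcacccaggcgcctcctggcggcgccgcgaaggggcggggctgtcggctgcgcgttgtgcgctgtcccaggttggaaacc

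PSMD9 (chr12:121888540-121888789, plus strand): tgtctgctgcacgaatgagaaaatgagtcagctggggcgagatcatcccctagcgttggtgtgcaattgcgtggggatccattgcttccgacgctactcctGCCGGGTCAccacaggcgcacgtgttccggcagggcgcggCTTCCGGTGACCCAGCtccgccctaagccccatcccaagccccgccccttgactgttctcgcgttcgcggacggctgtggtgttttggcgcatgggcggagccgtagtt

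PSMD12 (chr17:67366578-67366827, minus strand): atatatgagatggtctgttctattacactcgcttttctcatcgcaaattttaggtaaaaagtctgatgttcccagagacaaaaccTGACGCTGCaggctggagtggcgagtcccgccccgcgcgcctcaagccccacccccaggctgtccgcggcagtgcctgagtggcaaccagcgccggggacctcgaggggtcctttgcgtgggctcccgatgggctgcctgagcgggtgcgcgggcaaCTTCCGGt

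PSMD10 (chrX:108091543-108091792, minus strand): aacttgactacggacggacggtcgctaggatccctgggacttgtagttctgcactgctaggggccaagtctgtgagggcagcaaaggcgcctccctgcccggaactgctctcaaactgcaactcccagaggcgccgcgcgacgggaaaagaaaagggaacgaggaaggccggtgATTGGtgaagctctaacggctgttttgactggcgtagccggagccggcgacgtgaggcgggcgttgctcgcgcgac

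PSMB9 held a CCAAT box 243 bases and a reverse-strand antioxidant response core 148 bases before its start. PSMD9 held the core on both strands, at 149 and 102 bases, with an ETS motif beside the second one, and PSMD12 held a core at 165 bases and an ETS motif whose last base was position -2 from the start. PSMD10 held a reverse CCAAT box alone. Over windows that ran from 250 bases before to 50 after the start, 42 of the 48 genes had an entry, and PSMA7, PSMB1, PSMB6, PSMB7, PSMD4 and PSMG3 did not. TGACNNNGC was present in 15 of the 42 (35.7%) against 16.1% of the 27305 symbols with a window, CCGGAAG in 15 (35.7% against 12.2%), AANATGGC in 9 (21.4% against 7.97%), the interferon element core in 7 (16.7% against 4.38%), CCAAT in 20 (47.6% against 39.7%) and the nuclear respiratory factor 1 motif in 5 (11.9% against 6.98%). A match of letters is a description and not a binding site.

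The first comparison asked what depletion of INO80 did to these genes. PSMB9, PSMD4 and PSMD10 showed the largest falls with both siRNAs, and PSMD9 the largest rise. With siINO80#1, 2 of the 46 genes rose and 11 fell. Over all 14034 genes tested, 41.6% were called, 20.7% higher and 20.8% lower. The median log2 fold change of the 46 was -0.21, against 0.00 over all genes, and 36 of the 46 had values below 0. With siINO80#2, 4 rose and 21 fell, against 55% of all genes called, 26.6% higher and 28.4% lower. The median of the 46 was then -0.30, against 0.00 over all genes. Without siINO80#2 replicate C, whose spread enters the shared error of the fit, siINO80#1 gave 2 higher and 24 lower, and siINO80#2 gave 4 higher and 21 lower with a median of -0.14. Over all genes that fit called 24.04% higher and 25.5% lower with siINO80#1 and 26.2% and 27.7% with siINO80#2. Without siINO80#1 replicate C, siINO80#1 gave 8 calls, with 4719 over all genes. For NTG and siINO80#1, all 3 same-letter pairs of libraries deviated together (correlations of 0.247, 0.263 and 0.135), and with the letter as a replicate block siINO80#1 gave 2 higher and 18 lower, against 22.5% higher and 22.6% lower over all genes. The 7 genes gained were PSMA3, PSMA4, PSMA6, PSMA7, PSMB3, PSMC5 and PSMG2. Of the 21 that fell with siINO80#2 and all libraries, 20 were called lower without replicate C, the exception being PSMC3. After rescaling to equal totals the 46 genes gave 1 higher and 12 lower with siINO80#1 and 2 and 23 with siINO80#2, while all genes split into 2164 higher and 3277 lower and into 2856 and 4527. Both siRNAs were compared with the same NTG libraries, so their values are given side by side and not as independent evidence. The plot of fold changes with the INO80 siRNAs gives all 46 genes.

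**Figure D2:**
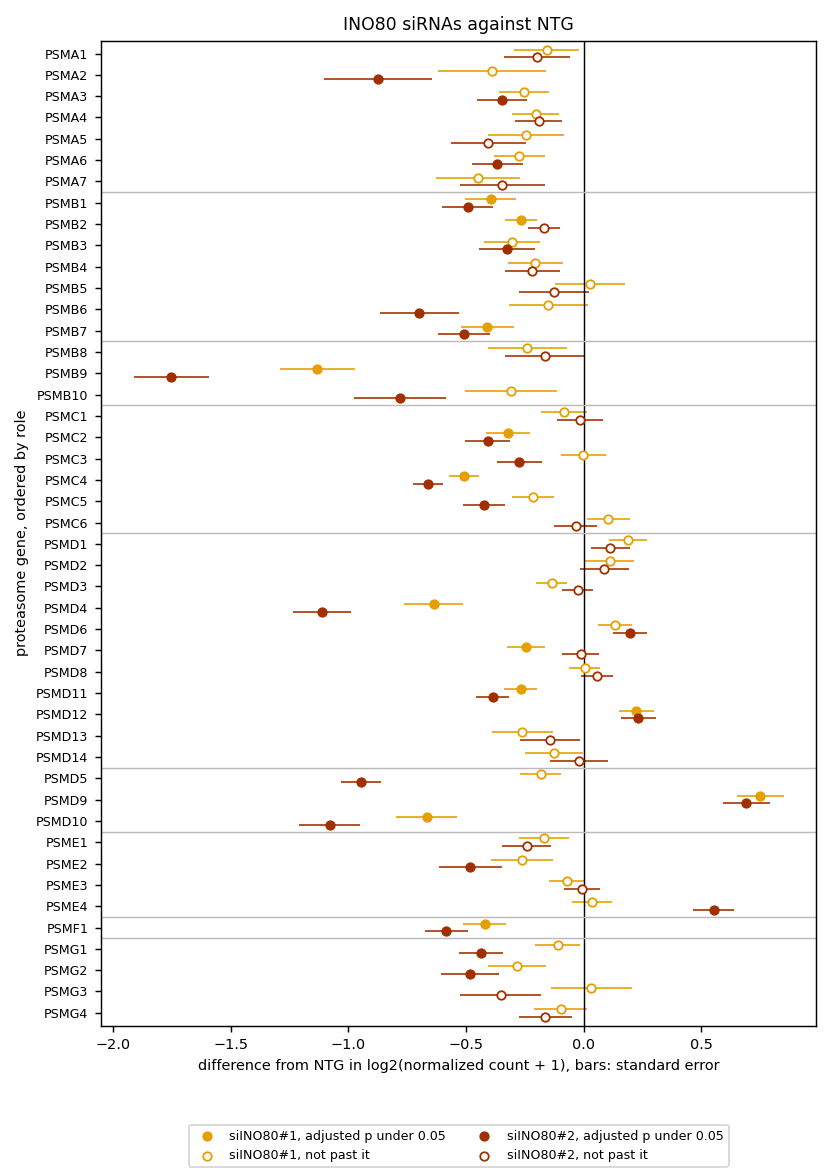
Points give the difference from NTG in log2(normalized count + 1) for siINO80#1 and siINO80#2 (3 libraries per group), bars give the standard error of the limma fit, filled points passed an adjusted p of 0.05, and grey lines separate roles. PSMB9 lies farthest to the left, at -1.13 and -1.75, and PSMD9 farthest to the right, at 0.75 and 0.69.

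PSMB9, the immunoproteasome counterpart of PSMB6, was at 143, 113 and 117 normalized counts in NTG, 52.5, 57.5 and 57.7 with siINO80#1 and 39.3, 32.2 and 36.8 with siINO80#2. Every knockdown library was below every control library, and the siINO80#2 libraries were below those of siINO80#1. PSMB9 fell to 0.45 and 0.29 of its NTG mean, with log2 fold changes of -1.13 ± 0.16 (SE, adjusted p = 0.00028) and -1.75 ± 0.16 (adjusted p = 7.98e-06). PSMB10, the counterpart of PSMB7, was at 161, 178 and 193 in NTG, 145, 152 and 130.3 with siINO80#1 and 112, 131 and 72.7 with siINO80#2. All knockdown libraries lay below the lowest control library, and the difference passed the test with siINO80#2 (-0.78 ± 0.19, adjusted p = 0.00583) and not with siINO80#1 (-0.31 ± 0.19, adjusted p = 0.232). PSMB8, the counterpart of PSMB5, was at 263, 248 and 275 in NTG, 223, 232 and 211 with siINO80#1 and 265, 282 and 170.1 with siINO80#2. The siINO80#2 libraries overlapped with NTG, and neither difference passed with all libraries (-0.24 ± 0.17, adjusted p = 0.285, and -0.17 ± 0.17, adjusted p = 0.427). Without siINO80#2 replicate C, PSMB8 was called lower with siINO80#1 (adjusted p = 0.0441).

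Some markers of other cells were followed because immunoproteasome subunits are abundant in blood cells. The summed level of 4 blood cell markers ranged from 1064 to 1253 normalized counts in NTG, 878 to 1123 with siINO80#1 and 695 to 1401 with siINO80#2, and was carried almost wholly by CD68, with a mean of 1123 in NTG. PTPRC, which marks all leukocytes, had means of 22.2, 21.8 and 22.9, CD3E was at 0, and neither of the 2 blood markers tested was called with either siRNA. HBB was at 0 to 3.37 normalized counts. Of the 10 hepatocyte or HepG2 markers, 1 rose and 1 fell with siINO80#1 and 5 fell with siINO80#2, among them HNF4A (-1.02), and the part of that in the values of proteasome genes was not tested.

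Of the constitutive catalytic subunits, PSMB7 was at 2833, 3178 and 3008 in NTG, 2293, 2365 and 2129 with siINO80#1 and 2411, 2249 and 1735 with siINO80#2. It was lower in all 6 knockdown libraries (-0.41 ± 0.11, adjusted p = 0.0131, and -0.51 ± 0.11, adjusted p = 0.00276). PSMB6 was at 1687, 1636 and 1636 in NTG, 1528, 1568 and 1379 with siINO80#1 and 1219, 1205 and 718 with siINO80#2. The 3 groups did not overlap, and PSMB6 fell with siINO80#2 (-0.70 ± 0.17, adjusted p = 0.00484), or -0.45 without replicate C. With siINO80#1 it did not pass (-0.15 ± 0.17, adjusted p = 0.512). PSMB5 was at 6265, 6876 and 6159.6 in NTG, 6475, 6832 and 6331 with siINO80#1 and 7011, 6643 and 4375 with siINO80#2. The siINO80#2 libraries lay on both sides of the NTG range, with replicate C far below it, and neither difference passed (0.03 and -0.13).

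Among the non-catalytic beta subunits, PSMB1 fell with both siRNAs (-0.40 and -0.49), PSMB2 with siINO80#1 (-0.27) and PSMB3 with siINO80#2 (-0.33, or -0.16 without replicate C). All 7 alpha ring genes had values below 0 with both siRNAs, from -0.16 to -0.45 with siINO80#1, where none passed without the block and 4 did with it, and from -0.19 to -0.87 with siINO80#2, where PSMA2, PSMA3 and PSMA6 fell. Without siINO80#2 replicate C, 5 of the 7 were called lower with siINO80#1 and PSMA2, PSMA3 and PSMA6 with siINO80#2. PSMA2 then had a value of -0.52 with siINO80#2, compared with -0.87 with all libraries.

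In the 19S cap, the ATPases PSMC2 and PSMC4 fell with both siRNAs, and PSMC3 and PSMC5 with siINO80#2. PSMC4 had the smallest adjusted p of the 46 genes with siINO80#1, with log2 fold changes of -0.51 ± 0.06 (adjusted p = 0.000113) and -0.66 ± 0.06 (adjusted p = 1.03e-05). PSMC1 and PSMC6 did not pass with either. PSMD4, a ubiquitin receptor also known as RPN10, was at 2552, 2664 and 2468 in NTG, 1632, 1745 and 1562 with siINO80#1 and 1342, 1326 and 933 with siINO80#2. The 3 groups were separate, with siINO80#2 lowest, and PSMD4 fell to 0.643 (-0.64 ± 0.12, adjusted p = 0.00199) and 0.469 (-1.11 ± 0.12, adjusted p = 2.92e-05) of the NTG mean. PSMD11, a scaffold subunit of the lid, also fell with both (-0.27 and -0.39). PSMD7, the partner of the deubiquitinase PSMD14, fell with siINO80#1 (-0.24 ± 0.08, adjusted p = 0.0306), a call lost in 5 of 21 other settings, one of them without siINO80#1 replicate C, while its value with siINO80#2 was -0.01.

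Of the lid subunits that rose, PSMD12 was at 2572, 2581 and 2306 in NTG, 3042, 2877 and 2779 with siINO80#1 and 3128, 2775 and 2863 with siINO80#2. All 6 knockdown libraries exceeded the highest control library, with log2 fold changes of 0.22 ± 0.07 (adjusted p = 0.0338) and 0.23 ± 0.07 (adjusted p = 0.0213). The call with siINO80#1 was lost in 9 of 21 other settings. Among them were equal totals, quantile normalization, and fits without NTG replicate A or C or without siINO80#1 replicate A, B or C. That with siINO80#2 was lost in 3, namely equal totals, without NTG replicate C and without siINO80#2 replicate A. PSMD6 rose with siINO80#2 (0.20 ± 0.07, adjusted p = 0.0401), a call lost in 12 of 21 other settings, among them equal totals (0.09). The remaining 19S non-ATPases, PSMD1, PSMD2, PSMD3, PSMD8, PSMD13 and PSMD14, did not pass with either siRNA.

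The 3 chaperones of the 19S base moved in different directions. PSMD9 was at 417, 435 and 395 in NTG, 709, 732 and 660.3 with siINO80#1 and 750.5, 690.0 and 583 with siINO80#2. Knockdown and control libraries were separate, and PSMD9 rose 1.69-fold (0.75 ± 0.10, adjusted p = 0.000186) and 1.62-fold (0.69 ± 0.10, adjusted p = 0.000174). PSMD10, also known as gankyrin, was at 789, 847 and 771 in NTG, 544, 473 and 498 with siINO80#1 and 411, 438 and 301 with siINO80#2. It was below NTG in all 6 knockdown libraries and fell to 0.63 (-0.67 ± 0.13, adjusted p = 0.00198) and 0.478 (-1.08 ± 0.13, adjusted p = 4.83e-05) of the NTG mean. PSMD5 was at 849.9, 883 and 797 in NTG, 737, 743 and 747 with siINO80#1 and 490.2, 419 and 405 with siINO80#2. The 3 groups were separate, with siINO80#2 well below the others, and PSMD5 fell with siINO80#2 (-0.95 ± 0.09, adjusted p = 7.81e-06), whereas siINO80#1 did not pass (-0.18 ± 0.09, adjusted p = 0.116).

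Among the activators, PSME4, which encodes PA200, was at 6211, 6596 and 5487 in NTG, 6509.9, 6230.4 and 5956 with siINO80#1 and 9387, 8216 and 9201 with siINO80#2. The siINO80#2 libraries were above all others, and PSME4 rose 1.47-fold with siINO80#2 (0.55 ± 0.09, adjusted p = 0.000293) but had a value of 0.03 ± 0.09 with siINO80#1. PSME1 and PSME2, which form the interferon-inducible PA28 activator, were lower in all knockdown libraries than in NTG. PSME1 was at 2828, 2785 and 2914 in NTG, 2648, 2439 and 2498 with siINO80#1 and 2707, 2589 and 1978 with siINO80#2, and passed with neither with all libraries (-0.17 and -0.24). PSME2 was at 3215, 3008 and 3043 in NTG, 2734, 2491 and 2506 with siINO80#1 and 2567, 2477 and 1699 with siINO80#2 and fell with siINO80#2 (-0.48 ± 0.13, adjusted p = 0.0101), or -0.29 without replicate C. Without that library PSME1 and PSME2 were called lower with siINO80#1 (adjusted p = 0.0241 and 0.00361). PSME3, which forms the nuclear activator PA28 gamma, overlapped between all groups, at 4545, 4682 and 4161 in NTG, 4302, 4179 and 4233 with siINO80#1 and 4497, 4073 and 4764 with siINO80#2.

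The inhibitor gene PSMF1 fell with both siRNAs (-0.42 ± 0.09, adjusted p = 0.00369, and -0.58 ± 0.09, adjusted p = 0.000285). Of the core chaperones, PSMG1 and PSMG2, which form a dimer that assists the alpha ring, fell with siINO80#2 (-0.44 and -0.48), and PSMG3 and PSMG4 did not pass with either. Without siINO80#2 replicate C, the siINO80#2 values were -1.77 for PSMB9, -0.54 for PSMB10, -0.37 for PSMB7, -0.94 for PSMD4, -0.92 for PSMD10, -0.89 for PSMD5, 0.79 for PSMD9 and 0.53 for PSME4, each called as before.

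The 2 INO80 siRNAs were then compared with each other. INO80 itself was lower with siINO80#2, with a difference of -0.40 ± 0.08 log2 units (adjusted p = 0.00577). Of the 46 genes, 6 were lower and 1 was higher with siINO80#2, while 22.1% of all genes were called, 9.48% higher and 12.6% lower. PSMD5 (-0.76 ± 0.09, adjusted p = 0.00035) and PSME4 (0.52 ± 0.09, adjusted p = 0.00237) differed most, in opposite directions. PSMB9, PSMB6, PSMD4, PSMD10 and PSMG1 were also lower with siINO80#2. Without siINO80#2 replicate C the calls of PSMD10 (-0.25) and PSMG1 (-0.24) were lost, PSMF1 was gained as lower, and PSMA7, PSMD7, PSMD13 and PSMD14 were gained as higher, so that 5 genes were called in each direction. Over all genes that fit called 9.21% higher and 11.95% lower. The median of the 46 turned from -0.09 to 0.04. Without siINO80#1 replicate A, B or C, 3, 2 and 4 of the 46 were called, and 1948, 2135 and 2042 of all genes. After rescaling to equal totals, 2 of the 46 were lower and 1 was higher, against 10.8% and 7.32% of all genes.

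The second comparison concerned depletion of MCRS1, in DMSO and in EPZ-6438. PSMB9 and PSMB8 fell most in both backgrounds, and PSMD9 and PSMD12 rose most. In DMSO, 7 of the 46 genes rose and 7 fell, whereas 47.7% of all 14312 genes tested were called, 23.1% higher and 24.6% lower. In EPZ-6438, 11 rose and 6 fell, and 53.7% of all genes were called, 26.8% higher and 26.9% lower. The median log2 fold change of the 46 was 0.05 in DMSO and 0.11 in EPZ-6438, against 0.00 and 0.01 over all genes. This split depended on the scaling. Rescaling to equal totals moved the median of all genes by -0.23 in each, and gave 2 higher and 17 lower in DMSO and 6 higher and 14 lower in EPZ-6438. Equal totals split all genes into 1892 higher and 5107 lower in DMSO and 2292 and 5333 in EPZ-6438. Quantile normalization gave 2 higher and 14 lower in DMSO and 4 higher and 14 lower in EPZ-6438, with 21.7% higher and 23.4% lower of all genes in DMSO and 25.5% and 25.4% in EPZ-6438. Relative to the median of all genes, the median of the 46 lay at 0.05 in DMSO with the deposited scaling and with equal totals, and at -0.19 after quantile normalization. No direction is therefore stated for the genes as a group.

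Single libraries mattered as well. Without DMSO NTG replicate 3, the median of the 46 in DMSO was -0.02, against 0.05 with all libraries. That fit leaves 1 control library in DMSO, assumed to vary like the other groups. Without DMSO siMCRS1 replicate 3 the counts in DMSO were 7 higher and 3 lower, and without DMSO siMCRS1 replicate 2 the total was 9. Of all genes, 6042 and 5617 were then called, against 6830 with all libraries. Without EPZ-6438 NTG replicate 1 the counts in EPZ-6438 were 18 and 5, with 7384 of all genes called against 7686. Without EPZ-6438 siMCRS1 replicate B, which leaves 1 library in that group, the median of the 46 in EPZ-6438 was 0.12, against 0.11 with all libraries. The comparisons in DMSO and in EPZ-6438 share no library. Of the genes that rose, 6 were shared, which is 85.7% of the list in DMSO and 54.5% of that in EPZ-6438, namely PSMB5, PSMD1, PSMD2, PSMD7, PSMD9 and PSMD12. Of those that fell, 5 were shared, which is 71.4% and 83.3%, namely PSMB8, PSMB9, PSMD4, PSME1 and PSMG4. The same overlap over all genes, of which 47.7% and 53.7% were called, was not counted, so these shares have no background. The plot of MCRS1 fold changes shows both backgrounds.

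**Figure D3:**
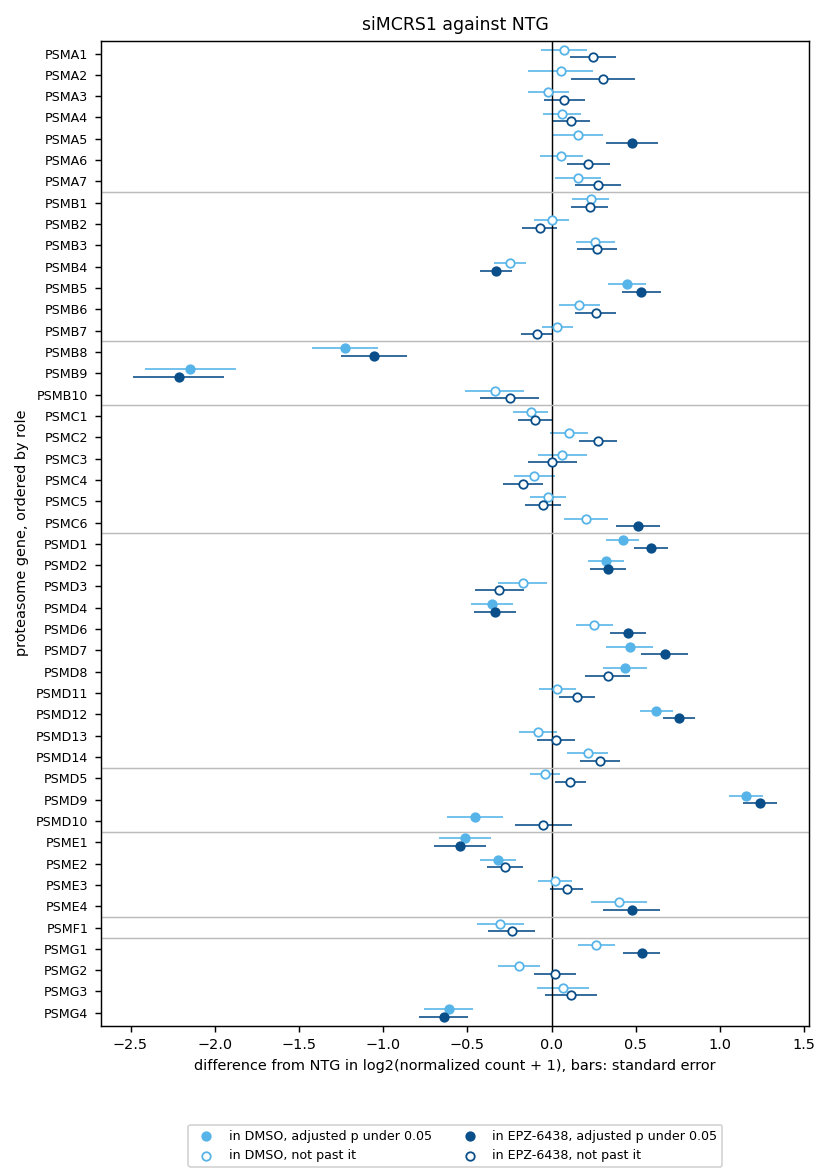
Points give the difference of siMCRS1 from NTG in log2(normalized count + 1) in DMSO (3 and 2 libraries) and in EPZ-6438 (2 and 3 libraries), bars give the standard error of the limma fit, filled points passed an adjusted p of 0.05, and grey lines separate roles. PSMB9 and PSMB8 are lowest, at -2.15 and -1.23 in DMSO, and PSMD9 is highest, at 1.15 in DMSO and 1.24 in EPZ-6438.

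PSMB9 was at 147 and 137 normalized counts in DMSO NTG, 42.3, 24.2 and 30.1 in DMSO siMCRS1, 196, 195 and 179 in EPZ-6438 NTG and 50.4 and 32 in EPZ-6438 siMCRS1. Every siMCRS1 library was far below every NTG library. The gene fell to 0.226 of the NTG mean in DMSO (-2.15 ± 0.27, adjusted p = 0.000146) and to 0.217 in EPZ-6438 (-2.21 ± 0.27, adjusted p = 7.97e-05). PSMB8 was at 526 and 463 in DMSO NTG, 269, 182 and 189 in DMSO siMCRS1, 627, 532 and 563 in EPZ-6438 NTG and 318 and 239 in EPZ-6438 siMCRS1. It fell to 0.432 (-1.23 ± 0.19, adjusted p = 0.000532) and 0.484 (-1.05 ± 0.19, adjusted p = 0.00102), again with no overlap. Both genes were called lower under all 3 scalings and without any single library. PSMB10 was at 259 and 274 in DMSO NTG, 215, 196 and 222 in DMSO siMCRS1, 353, 245 and 287 in EPZ-6438 NTG and 271 and 222 in EPZ-6438 siMCRS1. Its groups overlapped in EPZ-6438 and neither difference passed (-0.34 ± 0.18, adjusted p = 0.138, and -0.25 ± 0.18, adjusted p = 0.256).

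Blood cell markers moved in part with siMCRS1. Their sum ranged from 982 to 1054 in DMSO NTG, 715 to 843 in DMSO siMCRS1, 924 to 1609 in EPZ-6438 NTG and 596 to 692 in EPZ-6438 siMCRS1. Of the 2 tested, CD68 fell in EPZ-6438 (-0.93, adjusted p = 0.0023) and PTPRC was called in neither, with means of 12.9 and 16.02 in DMSO and 16.02 and 16.9 in EPZ-6438. Of 3 fibroblast markers tested, 1 rose in DMSO and 2 in EPZ-6438, among them COL1A1 (1.25 and 2.91). The lowest value among the 3 was -1.47 in DMSO and -0.36 in EPZ-6438, and none was called lower. HBB was at 0 in all 10 libraries and CD3E at 0 in the DMSO libraries. The part of these markers in the fall of PSMB8 and PSMB9 was not tested.

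None of the constitutive catalytic subunits was called lower with siMCRS1 on the deposited scale. PSMB5 was at 11933 and 11189.7 in DMSO NTG, 16339, 17216 and 13882 in DMSO siMCRS1, 12533, 11229 and 10703 in EPZ-6438 NTG and 16162 and 17004 in EPZ-6438 siMCRS1. All siMCRS1 libraries were above all NTG libraries, and PSMB5 rose in DMSO (0.45 ± 0.11, adjusted p = 0.00814) and in EPZ-6438 (0.53 ± 0.11, adjusted p = 0.00256). Quantile normalization left values of 0.08 and 0.11 for PSMB5, which did not pass, and in DMSO the call was also lost after equal totals and without DMSO NTG replicate 3. PSMB6 was at 2483 and 2257 in DMSO NTG, 2863, 2778 and 2348 in DMSO siMCRS1, 2724, 2283 and 2218 in EPZ-6438 NTG and 2854 and 2890.0 in EPZ-6438 siMCRS1. The values overlapped in DMSO, were higher with siMCRS1 in EPZ-6438, and passed in neither (0.16 and 0.26). PSMB7 was at 4859 and 5157 in DMSO NTG, 5288, 5304 and 4798 in DMSO siMCRS1, 5189.7, 4962 and 4618 in EPZ-6438 NTG and 4509.6 and 4743 in EPZ-6438 siMCRS1, with overlap in both backgrounds (0.03 and -0.09).

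The share of the immunoproteasome subunit in the reads of each catalytic pair does not depend on the scaling of a library. PSMB9 made up 6.98% ± 0.72 (SD, n = 3) of PSMB9 and PSMB6 reads in NTG, 3.62% ± 0.357 with siINO80#1 and 3.53% ± 1.2 with siINO80#2. In the second experiment it made up 5.67% in DMSO NTG, 1.2% ± 0.301 in DMSO siMCRS1, 7.35% ± 0.591 in EPZ-6438 NTG and 1.41% in EPZ-6438 siMCRS1. No knockdown library overlapped with a control library of its comparison. The exact permutation test, two-sided, gave p = 0.1 for each INO80 siRNA and p = 0.2 for siMCRS1 in each background, which are the smallest values that 3 against 3 and 2 against 3 libraries allow. PSMB8 made up 4.1% of PSMB8 and PSMB5 reads in DMSO NTG, 1.34% ± 0.289 in DMSO siMCRS1, 4.76% ± 0.239 in EPZ-6438 NTG and 1.66% in EPZ-6438 siMCRS1, also without overlap (exact permutation p = 0.2 in each). With the INO80 siRNAs the PSMB8 share was 3.28% ± 0.0536 and 3.82% ± 0.225, compared with 3.93% ± 0.4 in NTG, of which siINO80#2 overlapped with NTG (exact permutation p = 0.8) and siINO80#1 did not (exact permutation p = 0.1). The PSMB10 share of PSMB10 and PSMB7 was 5.56% in NTG, 5.92% with siINO80#1 and 4.66% with siINO80#2, with overlap for both. It was 5.06% in DMSO NTG, 3.96% in DMSO siMCRS1, 5.64% in EPZ-6438 NTG and 5.07% in EPZ-6438 siMCRS1, and overlapped in EPZ-6438 only.

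**Figure D4:**
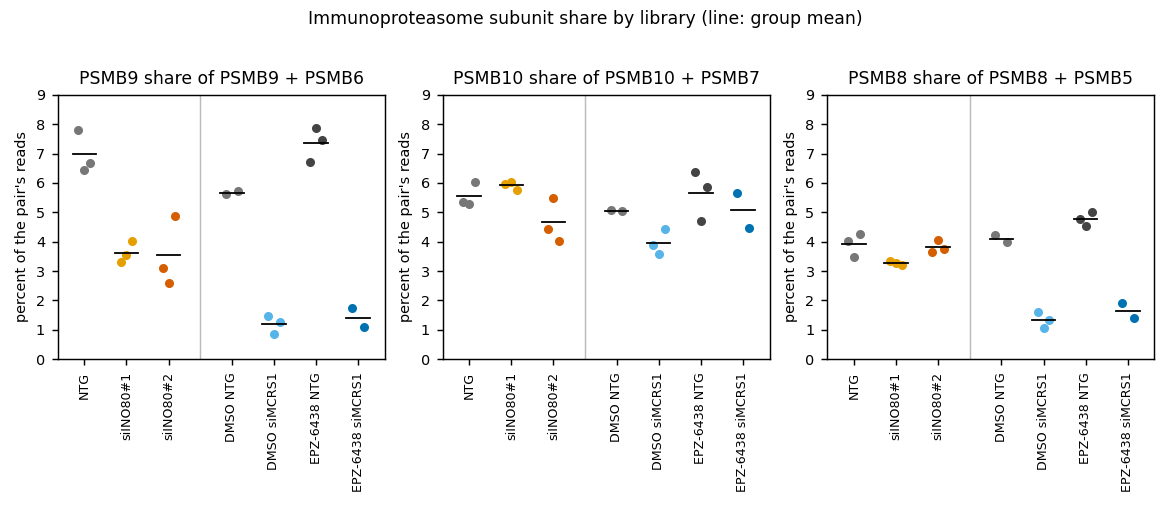
Points give, per library, the percent of the reads of a catalytic pair that belong to the immunoproteasome subunit, lines give group means, and the vertical line separates the 2 experiments. The PSMB9 share is lower in all knockdown libraries than in their controls, and the PSMB8 share is lower in all siMCRS1 libraries, at 1.04% to 1.93%.

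PSMD9 was at 745 and 764 in DMSO NTG, 1672, 1783 and 1583 in DMSO siMCRS1, 700.3, 673 and 638 in EPZ-6438 NTG and 1522 and 1641 in EPZ-6438 siMCRS1. The gene rose 2.23-fold in DMSO (1.15 ± 0.10, adjusted p = 2.39e-05) and 2.36-fold in EPZ-6438 (1.24 ± 0.10, adjusted p = 1.03e-05), and every siMCRS1 library exceeded every NTG library. PSMD12 was at 6095 and 6476 in DMSO NTG, 9019, 10465 and 9542 in DMSO siMCRS1, 5439.6, 5093 and 5258 in EPZ-6438 NTG and 8421 and 9375 in EPZ-6438 siMCRS1. The groups did not overlap and the rise was 1.54-fold (0.62 ± 0.10, adjusted p = 0.000493) and 1.69-fold (0.76 ± 0.10, adjusted p = 0.000107). PSMD9 and PSMD12 were called higher under all 3 scalings in both backgrounds.

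Other 19S non-ATPases rose too. PSMD7 was at 7228 and 6088 in DMSO NTG, 9374, 9851 and 8283 in DMSO siMCRS1, 7348, 5632 and 5533 in EPZ-6438 NTG and 9516 and 9953 in EPZ-6438 siMCRS1. The siMCRS1 libraries were all higher (0.46 ± 0.14, adjusted p = 0.0178, and 0.67 ± 0.14, adjusted p = 0.00205). PSMD1, a large scaffold of the base, rose in both (0.42 and 0.59), as did its relative PSMD2 (0.32 and 0.33). PSMD8 rose in DMSO (0.43) and PSMD6 in EPZ-6438 (0.45). Among other settings, the PSMD2 call in DMSO was lost without DMSO siMCRS1 replicate 1 or 3. That in EPZ-6438 was lost without EPZ-6438 NTG replicate 3 and in a fit of only the groups compared. Under all 3 scalings, PSMD7 was called in EPZ-6438 and the other 4 in neither background. With quantile normalization PSMD2 had values below 0, at -0.026 and -0.11. PSMD4 was at 4476 and 4035 in DMSO NTG, 3737, 3233 and 3045 in DMSO siMCRS1, 5033, 4366 and 3887 in EPZ-6438 NTG and 3515 and 3454 in EPZ-6438 siMCRS1. It was the 1 subunit of this set that fell in both (-0.35 ± 0.13, adjusted p = 0.0386, and -0.34 ± 0.13, adjusted p = 0.0418), but the call in DMSO was lost without either DMSO NTG library, without DMSO siMCRS1 replicate 2 or 3, and without either EPZ-6438 siMCRS1 library (adjusted p up to 0.22). That in EPZ-6438 was lost without 6 of the 10 libraries, among them EPZ-6438 NTG replicate 1, where the value was -0.24, and both EPZ-6438 siMCRS1 libraries (adjusted p up to 0.162).

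Of the remaining chaperones, PSMD10 was at 2048 and 1669 in DMSO NTG, 1473, 1384 and 1202 in DMSO siMCRS1, 2061, 1464 and 1394 in EPZ-6438 NTG and 1542 and 1579 in EPZ-6438 siMCRS1. It fell in DMSO (-0.46 ± 0.17, adjusted p = 0.0451), a call lost in 8 of 21 other settings, among them without DMSO NTG replicate 1 (-0.31) or DMSO siMCRS1 replicate 3 (-0.37), and overlapped in EPZ-6438 (-0.05 ± 0.17). PSMD5 was at 1809.5 and 1669 in DMSO NTG, 1669, 1746 and 1664 in DMSO siMCRS1, 1628, 1709 and 1583 in EPZ-6438 NTG and 1770.4 and 1771 in EPZ-6438 siMCRS1 and was called in neither. PSMG4, a core chaperone, was at 505 and 596 in DMSO NTG, 391, 314 and 377 in DMSO siMCRS1, 575, 494 and 575 in EPZ-6438 NTG and 368 and 333 in EPZ-6438 siMCRS1. It fell without overlap in both backgrounds (-0.61 ± 0.15, adjusted p = 0.0058, and -0.64 ± 0.15, adjusted p = 0.00367), though with quantile normalization neither call held (-0.38 and -0.37). PSMG1 rose in EPZ-6438 (0.53 ± 0.11, adjusted p = 0.00187) under all 3 scalings, and its value in DMSO was 0.26 (adjusted p = 0.0665).

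Of the activators, PSME1 fell in both backgrounds and PSME2 in DMSO. PSME1 was at 5334 and 4493 in DMSO NTG, 3912, 3548 and 2886 in DMSO siMCRS1, 6063, 5167 and 5026 in EPZ-6438 NTG and 4162 and 3301 in EPZ-6438 siMCRS1. All siMCRS1 libraries were below the NTG libraries (-0.52 ± 0.15, adjusted p = 0.0174, and -0.54 ± 0.15, adjusted p = 0.012), with both calls under all 3 scalings. The call in DMSO was lost without DMSO NTG replicate 1 or DMSO siMCRS1 replicate 3 (-0.39 in each), and that in EPZ-6438 without EPZ-6438 siMCRS1 replicate B (-0.38). PSME2 was at 5377 and 5568 in DMSO NTG, 4724, 4476 and 3979 in DMSO siMCRS1, 6249, 5278 and 5666 in EPZ-6438 NTG and 4963 and 4489 in EPZ-6438 siMCRS1. It fell in DMSO (-0.32 ± 0.11, adjusted p = 0.0306), a call lost in 6 of 21 other settings, among them without DMSO siMCRS1 replicate 3 (-0.25), and just missed the threshold in EPZ-6438 (-0.28 ± 0.11, adjusted p = 0.05). PSME4 was at 11026 and 12881 in DMSO NTG, 13118, 16702 and 17726 in DMSO siMCRS1, 8332, 9858 and 10399 in EPZ-6438 NTG and 11324 and 15333 in EPZ-6438 siMCRS1. Within each background the activator was higher in every siMCRS1 library, and it passed in EPZ-6438 (0.47 ± 0.17, adjusted p = 0.0335) but not in DMSO (0.40 ± 0.17, adjusted p = 0.0709). The call was lost in 7 of 21 other settings, among them equal totals (0.24), quantile normalization (0.04), and without EPZ-6438 NTG replicate 1 (0.38) or EPZ-6438 siMCRS1 replicate B (0.26). PSME3 overlapped between groups, at 9753 and 8614 in DMSO NTG, 9438, 9677 and 8770.4 in DMSO siMCRS1, 8426, 8921 and 7690.1 in EPZ-6438 NTG and 8837 and 8871 in EPZ-6438 siMCRS1.

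The alpha ring and the ATPases showed few calls. In DMSO none of the 7 alpha genes and none of the 6 ATPases passed, with ranges of -0.02 to 0.16 and -0.12 to 0.20. In EPZ-6438, PSMA5 rose (0.48 ± 0.15, adjusted p = 0.0221) and so did PSMC6 (0.51 ± 0.13, adjusted p = 0.00679), while the beta subunit PSMB4 fell (-0.33 ± 0.10, adjusted p = 0.0133). The rises of PSMA5 and PSMC6 were not called after equal totals (0.24 and 0.27) or quantile normalization (0.22 for each), nor any of the 3 genes without EPZ-6438 siMCRS1 replicate B. PSMF1 had values of -0.30 and -0.24, which did not pass. The interferon element core was in the promoter window of 4 of the 6 members with a window that fell in DMSO (PSMB8, PSME1, PSME2 and PSMG4) and in none of the 7 that rose, while TGACNNNGC was in 3 of each. With the INO80 siRNAs the interferon element core was in 0 of 8 members with a window that fell with siINO80#1 and in 2 of 17 with siINO80#2. In EPZ-6438 it was in 4 of 5 that fell and 0 of 11 that rose, and in DMSO in 3 of the 27 not called.

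The third comparison was that of EPZ-6438 with DMSO. Neither in NTG nor in siMCRS1 cells was any of the 46 genes called, against 0.384% of all genes in NTG (0.321% higher, 0.0629% lower) and 0.0908% in siMCRS1 cells (0.0838% higher, 0.00699% lower). In NTG their log2 fold changes ran from -0.39 ± 0.13 for PSMC6, which had the smallest adjusted p at 0.174, to 0.41 ± 0.27 for PSMB9. In siMCRS1 cells they ran from -0.29 ± 0.11 for PSMD2 to 0.39 ± 0.19 for PSMB8. At an unadjusted p under 0.05, limma gave 6 of the 46 in NTG and 1 in siMCRS1 cells, which is 13.04% and 2.17% of them, against 17.1% and 9.12% of all genes. edgeR and DESeq2 also called 0 of the 46 in each, while DESeq2 called 3.03% of all genes higher and 2.01% lower in NTG. PSMB9 and PSMB8 were higher in all 3 EPZ-6438 NTG libraries than in both DMSO NTG libraries, but did not pass (adjusted p = 0.472 and 0.619). Whether the drug altered the response to siMCRS1 was tested as an interaction, for which 0 of the 46 and 0% of all genes were called, 0 of the 46 at an unadjusted p under 0.05, and 0 of the 46 by edgeR or DESeq2. The largest interaction was that of PSMD10, at 0.41 ± 0.24. With 2 or 3 libraries per group, differences of this size were not resolved, which does not show that the responses were alike.

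Across both experiments, 4 of the 46 genes were called in the same direction in all 4 comparisons of an siRNA with NTG. Each comparison called 41.6% to 55% of all genes, and how many of them shared a direction in all 4 was not counted. PSMB9 and PSMD4 were lower and PSMD9 and PSMD12 were higher, with the exceptions under other settings given above for PSMD4 and PSMD12. PSMD7, by contrast, was lower with siINO80#1 (-0.24) and higher with siMCRS1 (0.46 and 0.67). The PSMD7 calls with siINO80#1 and with siMCRS1 in DMSO were lost in 5 and 4 of 21 other settings. PSMG1 was lower with siINO80#2 (-0.44) and higher with siMCRS1 in EPZ-6438 (0.53). With all libraries PSMB8 was called with siMCRS1 and not with the INO80 siRNAs, and PSMD5 with siINO80#2 and not with siMCRS1. The differences between experiments were not tested, since the tables were normalized separately. The plot of 8 genes gives the counts behind these statements.

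**Figure D5:**
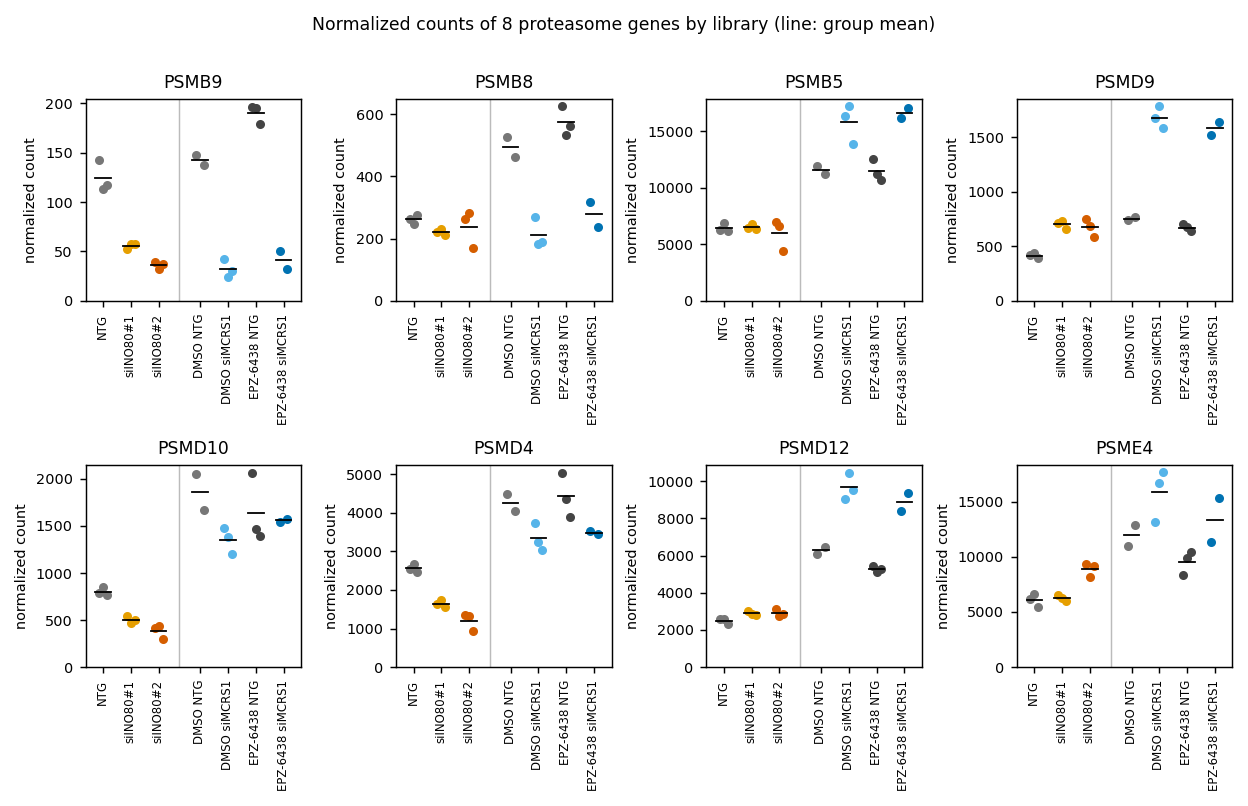
Points give the normalized count of 8 proteasome genes in each library, lines give group means, axes start at 0, and the vertical line separates the INO80 experiment from the MCRS1 and EPZ-6438 experiment, which were normalized separately. PSMB9, PSMD4, PSMD9 and PSMD12 separate knockdown from control libraries in both experiments, whereas PSME4 separates siINO80#2 but not siINO80#1 from NTG.

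Other genes of the pathway gave context. The list had 32 tested genes that make, load or regulate proteasomes. With siINO80#1, 7 rose and 6 fell, and with siINO80#2, 8 rose and 5 fell, with medians of -0.07 and -0.01, beside 20.7% higher and 20.8% lower, and 26.6% and 28.4%, of all genes. With siMCRS1, 17 rose and 3 fell in DMSO and 18 rose and 3 fell in EPZ-6438, with medians of 0.34 and 0.35, beside 23.1% higher and 24.6% lower of all genes in DMSO and 26.8% and 26.9% in EPZ-6438. Rescaling to equal totals changed these to 9 and 6 in each background, where all genes split into 13.2% higher and 35.6% lower in DMSO and 15.98% and 37.2% in EPZ-6438. Quantile normalization gave 8 and 6. By limma, EPZ-6438 against DMSO called 0 of the 32 in either cell group.

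PAAF1, which binds the 19S ATPases and restrains their joining to the core, was at 544, 465 and 489 in NTG, 230.1, 233 and 211 with siINO80#1 and 150.3, 136 and 136 with siINO80#2. It fell in steps between separate groups, by -1.15 ± 0.10 (adjusted p = 1.34e-05) and -1.82 ± 0.10 (adjusted p = 3.87e-07), and siMCRS1 lowered it as well (-0.73 in DMSO, -0.57 in EPZ-6438). DDI2, the protease that activates the transcription factor NFE2L1, fell in all 4 comparisons (-0.64, -0.81, -0.72 and -0.97), and NGLY1, which deglycosylates NFE2L1, fell with the INO80 siRNAs (-0.46 and -0.60). NFE2L1 itself was called in none on the deposited scale, although it was called lower with siINO80#1 after both rescalings (-0.27 and -0.21) and with siINO80#2 after equal totals (-0.19). USP14, a deubiquitinase of the 19S cap, rose in all 4 (0.48, 0.48, 0.82 and 1.04), as did ZFAND5, a proteasome activator (0.58, 0.81, 1.01 and 1.23). These calls of PAAF1, DDI2, USP14 and ZFAND5 held under all 3 scalings. MAFG, a partner of NFE2L1 on DNA, also rose in all 4 on the deposited scale (0.41, 0.31, 0.75 and 0.74), but not with siINO80#2 after rescaling to equal totals.

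POMP, the maturation factor of the core, rose with siMCRS1 (0.53 and 0.70) and was not called with the INO80 siRNAs (-0.07 and -0.05). In DMSO that call was lost after both rescalings. The small MAF gene MAFK rose with siMCRS1 under all 3 scalings (1.24 and 1.19), as did KIAA0368, which encodes the proteasome adaptor ECPAS (0.52 and 0.74). UCHL5 and UBE3C, enzymes that trim and extend ubiquitin chains on the proteasome, fell with both INO80 siRNAs (UCHL5 -0.26 and -0.45, UBE3C -0.24 and -0.26).

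Some counts could hold reads of other genes. Annotated pseudogenes of 12 members had 32 entries of their own, and their reads came to at most 3.93% of those of the parent gene, for PSMD10 in the INO80 experiment, and over 1% for no other member. Exons of 13 members overlap exons of another gene on the opposite strand in the GENCODE annotation. The library kit keeps strand, but whether the counting used it is not given in the sources used here, so these members are less certain. They include PSMB8 and PSMB9, whose RefSeq gene bodies lie 9512 bases apart on chromosome 6 but whose exons overlap in that annotation, and PSME4, PSMF1, PSMG4, PSME1 and PSME2.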

How the data were processed

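RNA-seq was performed on 19 HepG2 libraries prepared with a stranded mRNA kit. Per the submitters' processing notes, the authors used kallisto, DESeq2 and the genome build GRCh38, with no versions given; whether strand was used in counting is not given in the sources used here. The deposited values are a signal, counts per gene that the authors divided by 1 size factor per library, so that low genes depend on depth and the scaling assumes that most genes do not move. Dividing each library by its smallest step gave whole reads for 100% of values (tolerance 0.001), which may be rounded estimates and give the depths stated above.

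Tests used limma 3.58.1 under R 4.3.3, with a mean-variance trend in the moderated variances, on log2(value + 1) for genes that averaged 10 or more normalized counts in a table. This scale understates the change of low genes. All groups of a table entered 1 fit, and p-values were adjusted by Benjamini-Hochberg over all genes tested. A gene was called at an adjusted p under 0.05. edgeR 4.0.16 and DESeq2 1.42.0 were run on the recovered reads as alternatives, together with other pseudocounts, filters, scalings and leave-one-out fits. Shares were compared with an exact permutation test (scipy 1.17.1). The scripts were tested on simulated data.

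Groups came from the labels. Values in every library are given for the targeted genes, the catalytic pairs, the activators and, per comparison, up to 3 called members that rose and 3 that fell most with a mean of at least 50. The other members are given by fold, range and counts. Which genes of the pathway list are named, and the values in every library for PAAF1, were chosen after the values were seen. The members and lists were chosen with earlier results of these data known. In the INO80 experiment every same-letter pair deviated together between NTG and siINO80#1 but not in the other 2 comparisons; the fit without letters is the one reported, and the replicate block is given where it moves a count.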

Additional observations from a re-analysis of the deposited data

Results flagged for a closer look

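The direct comparison of the 2 INO80 siRNAs differed for 7 proteasome genes, by limma with a test of the difference itself. In log2 units, siINO80#2 minus siINO80#1, PSMD5 was at -0.76 ± 0.09 (adjusted p = 0.00035) and PSME4 at 0.52 ± 0.09 (adjusted p = 0.00237), and without siINO80#2 replicate C they were at -0.71 and 0.50. The catalytic genes PSMB9 and PSMB6 were at -0.62 ± 0.16 (adjusted p = 0.0199) and -0.55 ± 0.17 (adjusted p = 0.0401), or -0.64 and -0.30 without replicate C. PSMD4 was at -0.47 ± 0.12 (adjusted p = 0.0208), or -0.30 without that library. PSMD10, at -0.41 ± 0.13 (adjusted p = 0.0436), and PSMG1, at -0.33 ± 0.10 (adjusted p = 0.0332), lost their calls without it, with values of -0.25 and -0.24. Of the others, PSMB6 lost its call in 9 of 21 settings, among them equal totals, PSMB9 in 3, among them without siINO80#1 replicate B or C, and PSMD4 in 4, among them without siINO80#1 replicate A or B, while PSMD5 and PSME4 kept theirs in all 21. INO80 was also lower with siINO80#2, and the part of that difference in these values was not tested.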

How the results depend on the processing

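The count of proteasome genes called depended on settings that change the error of the fit. For siINO80#1 against NTG, 13 calls became 20 with the replicate block, 28 with only the groups compared, and 8 to 26 when single libraries were left out. Calls over all genes moved with them, from 5833 to 6327, to 6852 and to between 4719 and 6920. Same-letter deviations correlated with a mean of 0.103 (-0.077 to 0.263 over 9 pairs). Only between NTG and siINO80#1 did every pair exceed 0.1. The replicate block gave 27 calls for siINO80#2 against NTG and 9 for siINO80#2 against siINO80#1. For the latter, 7 calls became 3 after rescaling to equal totals, 4 without the trend, 2 with only the groups compared and 2 to 10 without single libraries. Over all genes, 3096 calls became 2536, 2641, 2371 and between 1948 and 3481 in the same settings. With siMCRS1 in DMSO, leaving out 1 library of a group of 3 turned 14 calls into 9 to 17. Calls over all genes turned from 6830 into 5617 to 7030. In EPZ-6438 the same fits turned 17 calls into 16 to 23, and 7686 over all genes into 6969 to 7600. With siMCRS1, 16 (DMSO) and 11 (EPZ-6438) of the 46 values turned sign after equal totals, as did 15 and 13 after quantile normalization. Of genes called in either fit, quantile normalization turned, in DMSO, PSMA6 (-0.30), PSMD2 (-0.026) and PSME3 (-0.27) and, in EPZ-6438, PSMD2 (-0.11) and PSME3 (-0.26). The cause was not tested. Counts for the drug and its interaction with siMCRS1 were 0 under every setting run.

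Calls held in every setting run for 8 of 13 genes with siINO80#1, 20 of 25 with siINO80#2, 2 of 7 between the siRNAs, 4 of 14 with siMCRS1 in DMSO and 6 of 17 in EPZ-6438. No paired analysis was possible because most value columns of the MCRS1 and EPZ-6438 experiment are numbered where the labels give letters, so the letters could not be tied to libraries; the fit of the groups compared alone was not run for the interaction. With 2 or 3 libraries per group, small changes cannot be resolved, and PSMB9, at 24.2 normalized counts in its lowest library, is measured less precisely than the abundant subunits.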
